A study of Homo sapiens with 12 samples.

Results

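The 46 genes described here encode subunits of the proteasome, its activators and inhibitor, and chaperones that assemble it, with a few subunits of tissue-specific or inducible forms among them. They were taken from the authors' merged gene count table, which has 40605 gene symbols, as every symbol made of PSM, one of the letters A to G and a number, without PSMB8 and PSMB9. The rule goes by symbol alone, and it was set with earlier results of these data known. The filter on low counts was passed by 42 of the 46 genes, among 13047 genes of the whole table.

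Transcripts were counted from 3' end tags in 12 libraries made from A549, an established human lung adenocarcinoma cell line, carrying a tetracycline-inducible gene for the kinase DYRK1B. In the WT line the inserted kinase is the wild-type form, and in the Y273F line the tyrosine of its activation loop is replaced by phenylalanine. By their titles, libraries 4 to 6 are WT cells given 2 µg/ml doxycycline (WT dox) and libraries 1 to 3 WT cells without it (WT control), while libraries 10 to 12 are Y273F dox and libraries 7 to 9 Y273F control. All cultures were kept for 7 days, the titles number 3 replicates in each of the 4 groups, and no line without the transgene is among the samples. Doxycycline itself and the induced kinase therefore cannot be told apart, and p-values measure the spread between these cultures.

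The proteasome degrades proteins tagged with ubiquitin. Its core is a barrel of alpha and beta rings with the cutting sites inside the beta rings, and a regulatory particle at its ends holds a ring of ATPases that unfolds substrates and a lid that removes ubiquitin. Dedicated chaperones guide both pieces together, and when proteasome activity falls short in human cells, the transcription factor NFE2L1 raises the transcription of the subunit genes together.

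Library totals ranged from 2.78e+06 to 2.20e+07 counts with a median of 7.55e+06, so 3 counts corresponded to 0.136 to 1.08 CPM (counts scaled to the library total), a floor that covers counting error only. DYRK1B, the gene meant to be induced, had 28.6, 12.6 and 19.97 CPM in libraries 4, 8 and 12, which are titled WT dox 1, Y273F control 2 and Y273F dox 3, and 2.63 to 7.79 CPM in the other 9. Its level thus went against the titles in some libraries, and the groups below are groups as titled. The CDK inhibitor gene CDKN1A had 256, 275 and 242 CPM in libraries 2, 6 and 10, titled WT control 2, WT dox 3 and Y273F dox 1, and 43.0 to 63.3 CPM in the other 9. The proteasome genes are therefore also described by 4 sets of library numbers (2/6/10, 4/8/12, 3/7/11 and 1/5/9), each of which mixes titled groups. Of 5 epithelial markers, 5 passed the filter. Their sum was 8106 to 11083 CPM in libraries 2/6/10 and 3088 to 4636 CPM elsewhere, mostly from KRT18. KRT8 and KRT19 were also higher there than in any other library, whereas CDH1 was lower, with 24.5, 30.5 and 25.4 CPM in libraries 2, 6 and 10 and 44.0 to 66.9 CPM in the other 9. EPCAM overlapped, with 6.74, 5.42 and 4.65 CPM in libraries 2, 6 and 10 and 4.78 to 32.4 CPM in the other 9. Of 5 fibroblast markers 2 passed (COL1A1 and LUM), and their list summed to 147 to 212 CPM in libraries 2/6/10 and 13.9 to 31.7 CPM elsewhere. Most of this sum was COL1A1, with 197, 136 and 163 CPM in libraries 2, 6 and 10. COL1A2, DCN and PDGFRB did not pass and had at most 0.357, 0.0447 and 0.899 CPM in any library. Of 5 leukocyte markers 1 passed (LYZ), with CD3E at 0 counts, and of 3 endothelial markers 0 passed, with VWF at 0 counts. The leukocyte and endothelial sums overlapped between libraries 2/6/10 and the rest. The epithelial and fibroblast sums move with libraries 2/6/10, and their part in any difference of these libraries given below was not tested. In RNA from whole cultures, fewer cells of a type and less RNA per cell cannot be told apart.

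Of the 14 genes of the alpha and beta rings found in most human cells, 13 passed the filter on low counts. The exception was PSMA2, an alpha subunit gene, with 35 counts in all 12 libraries and at most 0.995 CPM. The 6 ATPase genes, the 11 other genes of the regulatory particle, the 5 activator and inhibitor genes and the 7 chaperone genes passed as well. PSMB10, the inducible subunit that takes the place of PSMB7 in the immunoproteasome, had 12 counts in all 12 libraries. PSMA8 (the testis form of an alpha subunit) and PSMB11 (the subunit of the thymus proteasome) had 0 counts. PSMA6, an alpha subunit gene, passed nearest to the filter with 1.12, 1.67 and 1.79 CPM in libraries 2, 6 and 10, 0.580, 2.32 and 2.06 CPM in libraries 4, 8 and 12, 0.789, 2.51 and 1.56 CPM in libraries 3, 7 and 11, and 2.72, 2.19 and 2.23 CPM in libraries 1, 5 and 9, or 182 counts in all. PSMD9, a chaperone gene, had 581 counts in all. PSMA2, PSMA6, PSMB10 and PSMD9 each share exon bases on the same strand with another protein-coding gene of GENCODE release 29, as does PSMA1, which had 21110 counts. The part of this overlap in the low counts was not tested. Of the last 500 bases of the exons, the overlap covers 94.6% in PSMB10, 87.2% in PSMD9, 45.2% in PSMA6, 29.6% in PSMA1 and 0% in PSMA2. Where reads could be shared with another gene, the level is uncertain. For PSMA6, PSMB10, PSMD9 and PSMA1 this includes the last 500 bases, and for PSMA2 only exon bases before them. PSMF1 shares 31.2% of its last 500 bases with a processed transcript, and PSME2 shares 15.4% with a microRNA gene. The overlapping genes had 0 counts, apart from 98 for a neighbour of PSMD9.

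Promoters of 5 genes are printed because these genes differ most, and in both directions, between libraries 2/6/10 and 1/5/9, apart from PSMA6 with its low counts. Each is the RefSeq sequence (GRCh38.p14) of the 250 bases before the start of the gene, 5′ to 3′ on the gene's strand. Capitals mark the letters TGACNNNGC, the core of the antioxidant response element, which is the type of site that NFE2L1 binds. PSMC4 (chr19:39970915-39971164, + strand), PSMB3 (chr17:38752491-38752740, + strand) and PSMG2 (chr18:12658488-12658737, + strand) were lower in libraries 2/6/10, and PSME4 (chr2:53970994-53971243, - strand) and PSMD2 (chr3:184298991-184299240, + strand) were higher.
PSMC4: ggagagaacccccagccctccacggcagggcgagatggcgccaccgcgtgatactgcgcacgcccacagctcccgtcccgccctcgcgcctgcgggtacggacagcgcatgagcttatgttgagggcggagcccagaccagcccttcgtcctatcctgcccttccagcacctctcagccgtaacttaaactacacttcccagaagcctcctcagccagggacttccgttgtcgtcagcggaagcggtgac
PSMB3: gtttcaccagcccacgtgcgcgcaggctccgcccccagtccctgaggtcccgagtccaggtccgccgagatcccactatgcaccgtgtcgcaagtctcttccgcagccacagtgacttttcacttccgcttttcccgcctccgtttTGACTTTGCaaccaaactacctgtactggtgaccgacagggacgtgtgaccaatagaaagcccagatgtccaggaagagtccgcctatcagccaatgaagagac
PSMG2: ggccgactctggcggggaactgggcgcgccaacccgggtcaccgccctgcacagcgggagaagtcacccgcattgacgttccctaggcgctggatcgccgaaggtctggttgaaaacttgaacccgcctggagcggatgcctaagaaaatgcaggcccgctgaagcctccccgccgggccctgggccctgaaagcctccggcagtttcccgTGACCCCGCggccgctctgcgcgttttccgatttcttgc
PSME4: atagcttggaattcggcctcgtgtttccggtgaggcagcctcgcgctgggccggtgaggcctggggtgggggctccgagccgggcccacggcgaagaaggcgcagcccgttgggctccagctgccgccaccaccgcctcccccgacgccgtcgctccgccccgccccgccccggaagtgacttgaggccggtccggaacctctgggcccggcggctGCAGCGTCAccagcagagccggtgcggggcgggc
PSMD2: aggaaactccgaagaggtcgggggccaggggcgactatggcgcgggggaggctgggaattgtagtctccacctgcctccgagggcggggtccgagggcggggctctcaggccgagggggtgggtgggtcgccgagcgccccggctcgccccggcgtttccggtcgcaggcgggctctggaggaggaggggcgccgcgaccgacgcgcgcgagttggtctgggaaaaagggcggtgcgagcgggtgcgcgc
The motif begins 104 bases before the start in PSMB3 and 39 bases before it in PSMG2, and in PSME4 it lies on the other strand, so that the capitals are its reverse complement, 34 bases before the start. In PSMC4 it lies past the printed bases, 27 bases after the start and on the other strand, and PSMD2 has no match in its 250 bases before and 50 bases after the start.

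Searched on both strands of these windows of 250 bases before and 50 after the start, TGACNNNGC was found for 14 of the 40 proteasome genes with a RefSeq window. By windows, it was in 14 of 48 (29.2%), against 13.3% of 35116 windows in all and 14.7% of the 14910 windows of genes past the filter. No other motif was searched. Of the 14 genes, 7 had a higher and 7 a lower mean log2 CPM in libraries 2/6/10 than in libraries 1/5/9. The 14 genes are spread over roles: PSMA4, PSMB3, PSMC4, PSMC5, PSMD1, PSMD3, PSMD5, PSMD9, PSMD12, PSME1, PSME2, PSME4, PSMG1 and PSMG2. A match of letters is a description and not a binding site.

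The first pair of comparisons asks what differed with doxycycline, as titled, in each line. No proteasome gene passed the test for doxycycline in either line. In the WT line, 0 of 13047 genes (0%) had an adjusted p under 0.05 in edgeR's quasi-likelihood test, and the smallest adjusted p was 0.99999. At an unadjusted p under 0.05 there were 118 genes, 0 of them proteasome genes, and DESeq2 and limma-voom also called 0 genes (110 and 145 at an unadjusted p under 0.05). The 42 proteasome genes had a median log2 fold change of 0.0095 (WT dox over WT control), against -0.0016 over all genes, with 22 positive and 20 negative values. The beta subunit genes had 6 of 7 values below 0, and the other regulatory particle genes had 8 of 11 above 0. Over all genes 49.6% of values were above 0, and these role counts rest on values that did not pass the test.

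PSMA4, an alpha subunit gene, had the smallest p of the 42 in the WT line and was picked after its value was seen. It was read at 516, 542 and 579.8 CPM in WT dox libraries and 472, 531 and 495 CPM in WT control libraries. The groups overlapped, and its log2 fold change was 0.13 (95% confidence interval -0.084 to 0.34). PSMB5, which encodes the subunit with the chymotrypsin-like site, had 269.6, 277 and 282 CPM in WT dox libraries and 307, 312 and 289.7 CPM in WT control libraries. Every WT dox value lay below every WT control value, and its log2 fold change was -0.13 (95% confidence interval -0.38 to 0.12). The interval includes 0. PSMB5 was the 1 proteasome gene whose WT dox libraries lay below WT control without overlap (1.63% of all genes did so). Those that lay above were PSMA7, PSME1 and PSME3 (3 of 42, against 1.56% of all genes). PSME3, which encodes the nuclear activator PA28gamma, had 153, 158 and 161 CPM in WT dox libraries and 143, 141 and 148 CPM in WT control libraries.

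In the Y273F line, 0 of 13047 genes (0%) passed the test for doxycycline (smallest adjusted p 0.990 with edgeR). At an unadjusted p under 0.05 there were 215 genes with edgeR, 0 of them proteasome genes, and DESeq2 and limma-voom called 0 genes (214 and 199 unadjusted). The proteasome genes had a median log2 fold change of -0.014 (Y273F dox over Y273F control), against 0.010 over all genes, with 18 positive and 24 negative. The alpha subunit genes had 5 of 6 values below 0 and the activator and inhibitor genes 4 of 5 above 0. Over all genes 51.7% of values were above 0, and none of these values passed the test. PSMA5, an alpha subunit gene, had 75.1, 84.1 and 80.7 CPM in Y273F dox libraries and 93.1, 100.2 and 93.2 CPM in Y273F control libraries. The groups did not overlap, and its log2 fold change of -0.25 (SE 0.12) had an adjusted p of 0.990 with edgeR. PSMB5 had 325, 303 and 277 CPM in Y273F dox libraries and 275, 228 and 286 CPM in Y273F control libraries. These overlapped, with a log2 fold change of 0.20 (95% confidence interval -0.050 to 0.45). Y273F dox libraries lay above Y273F control without overlap for PSMC5, PSMD13, PSME4 and PSMG3 (4 of 42, against 5.46% of all genes). They lay below it for 7 of 42, PSMA3, PSMA5, PSMA6, PSMD7, PSMD11, PSMD14 and PSMG1, against 5.46% of all genes.

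Whether doxycycline acted differently in the lines was tested as the effect in WT minus that in Y273F, which passed for 0 of 13047 genes (0%, smallest adjusted p 0.99995 with edgeR). There were 161 genes at an unadjusted p under 0.05, 0 of them proteasome genes, and DESeq2 and limma-voom called 0 genes (141 and 154 unadjusted). PSMB5 had the smallest p of the proteasome genes, with a difference of -0.33 (95% confidence interval -0.68 to 0.022) on the log2 scale. It was also the 1 proteasome gene that DESeq2 placed at an unadjusted p under 0.05. The alpha subunit genes had 6 of 6 positive differences, with a median of 0.16, and the beta subunit genes 6 of 7 negative ones, with a median of -0.089. Over all genes 47.6% of differences were positive. Genes read in the same libraries are not independent of each other, and none of these differences passed the test. The median over the 42 genes was 0.032, against -0.018 over all genes.

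The lines were also compared without doxycycline. Again 0 of 13047 genes (0%) passed (smallest adjusted p 0.991 with edgeR). There were 445 genes at an unadjusted p under 0.05, 0 of them proteasome genes, and DESeq2 and limma-voom called 0 (471 and 454 unadjusted). The beta subunit genes had 7 of 7 negative log2 fold changes (Y273F control over WT control), between -0.20 and -0.10, and the alpha subunit genes 5 of 6 positive ones. Over all genes 46.2% were positive, and none of these values passed the test. PSMD14, which encodes the ubiquitin-removing enzyme of the lid, had 132, 124 and 131 CPM in Y273F control libraries and 118, 113 and 112 CPM in WT control libraries. The groups did not overlap, and the log2 fold change was 0.18 (95% confidence interval -0.029 to 0.38). It was the 1 proteasome gene at an unadjusted p under 0.05 with DESeq2. PSMG1, a chaperone of the alpha ring, had 51.1, 62.0 and 50.5 CPM in Y273F control libraries and 47.1, 40.7 and 47.9 CPM in WT control libraries, and its log2 fold change was 0.26 (95% confidence interval -0.044 to 0.57). These groups did not overlap either. Y273F control lay above WT control without overlap for PSMA3, PSMA4, PSMC1, PSMD1, PSMD11, PSMD14 and PSMG1 (7 of 42, against 5.62% of all genes). It lay below for PSMB4, PSMB5 and PSME4 (3 of 42, against 5.24%). The comparisons share control libraries, so their values are not independent of each other. The titled groups also hold different library sets. Y273F control (libraries 7 to 9) has no library of set 2/6/10, whereas WT control has library 2, WT dox library 6 and Y273F dox library 10. The other groups each lack a set too. WT control has no library of set 4/8/12, WT dox none of set 3/7/11 and Y273F dox none of set 1/5/9. In every comparison of titles, differences between titles and between library sets therefore cannot be fully told apart.

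The precision of these comparisons is set by 3 libraries a group and by the spread between them. The 3 libraries of each titled group come from 3 different library sets, so this spread includes the differences between sets described below. The median 95% confidence interval of a proteasome gene reached 0.29 to either side of its log2 fold change in each line and between the lines, and 0.41 for the difference. These intervals were not adjusted for the number of genes tested, whereas the test was. Changes of that size or smaller were therefore not detectable for most of these genes, and larger changes could also have been missed. The size of change that the adjusted test could detect is not given here.

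**Figure D1:**
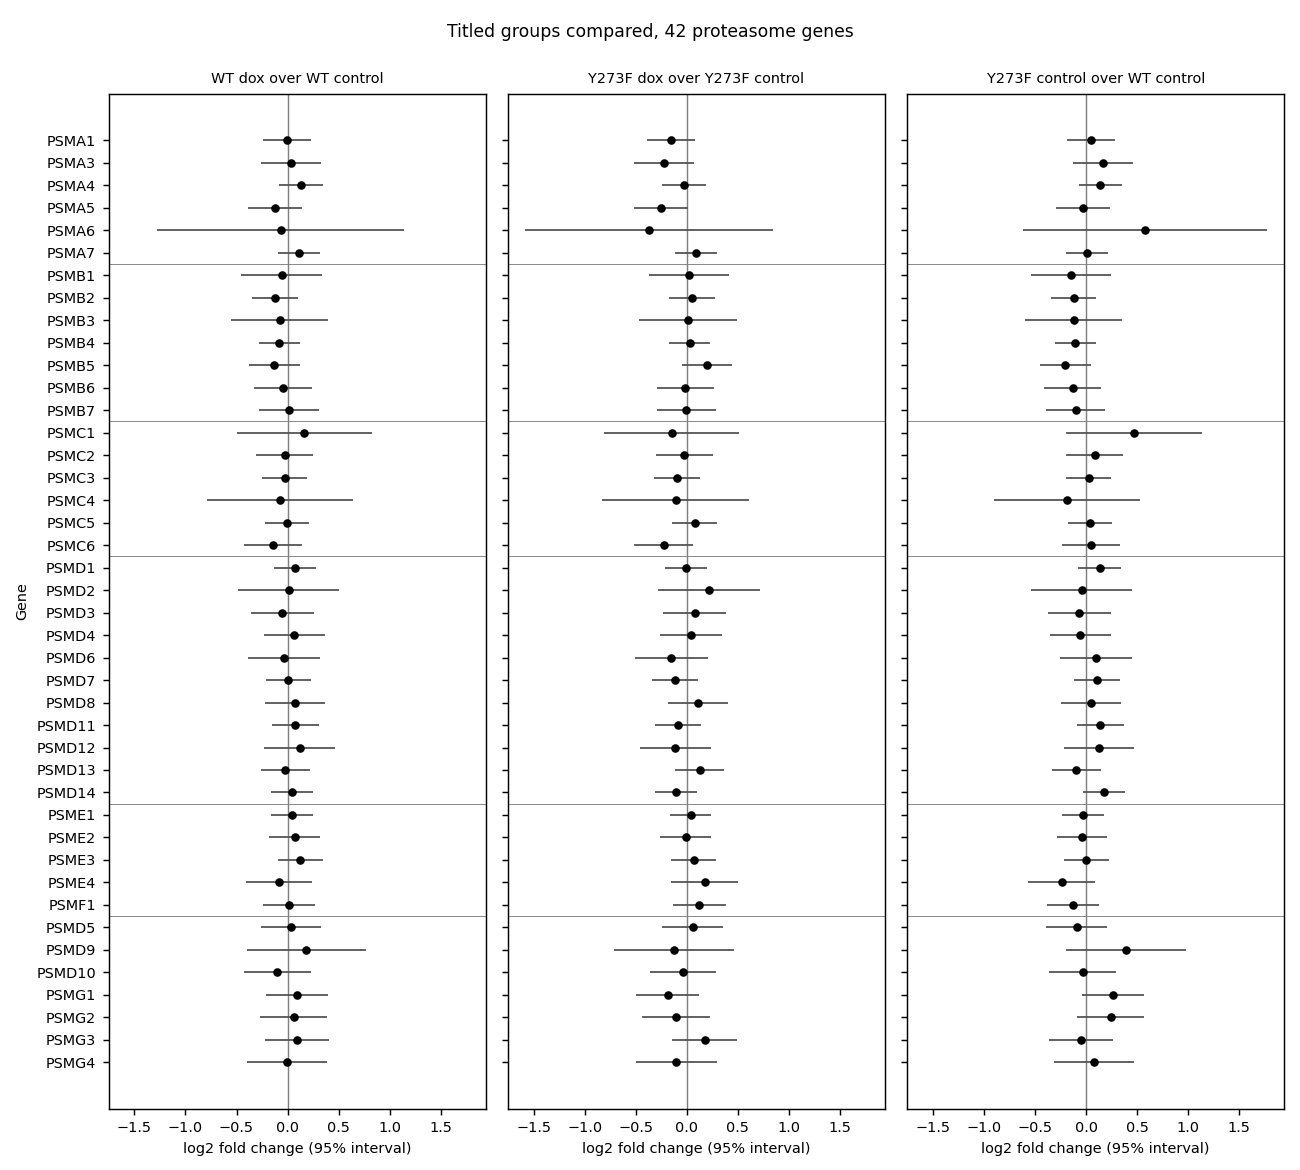
Log2 fold changes of the 42 proteasome genes that passed the filter, with 95% confidence intervals (lines), for WT dox over WT control, Y273F dox over Y273F control and Y273F control over WT control, 3 libraries a group. The intervals of all 42 genes include 0 in each panel, and those of PSMA6, PSMC1 and PSMC4 are among the widest.

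The proteasome genes varied less between libraries than the typical gene. Over the 12 libraries the SD of log2 CPM had a median of 0.14 over the 42 proteasome genes and of 0.30 over all 13047 genes. Among genes with a mean log2 CPM of at least 5 these medians were 0.14 (40 proteasome genes) and 0.20 (5182 genes). PSME1 (SD 0.055) and PSMB4 (SD 0.059) varied least. PSMA6 (0.58), PSMC1 (0.42), PSMC4 (0.42) and PSMD2 (0.28) varied most.

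**Figure D2:**
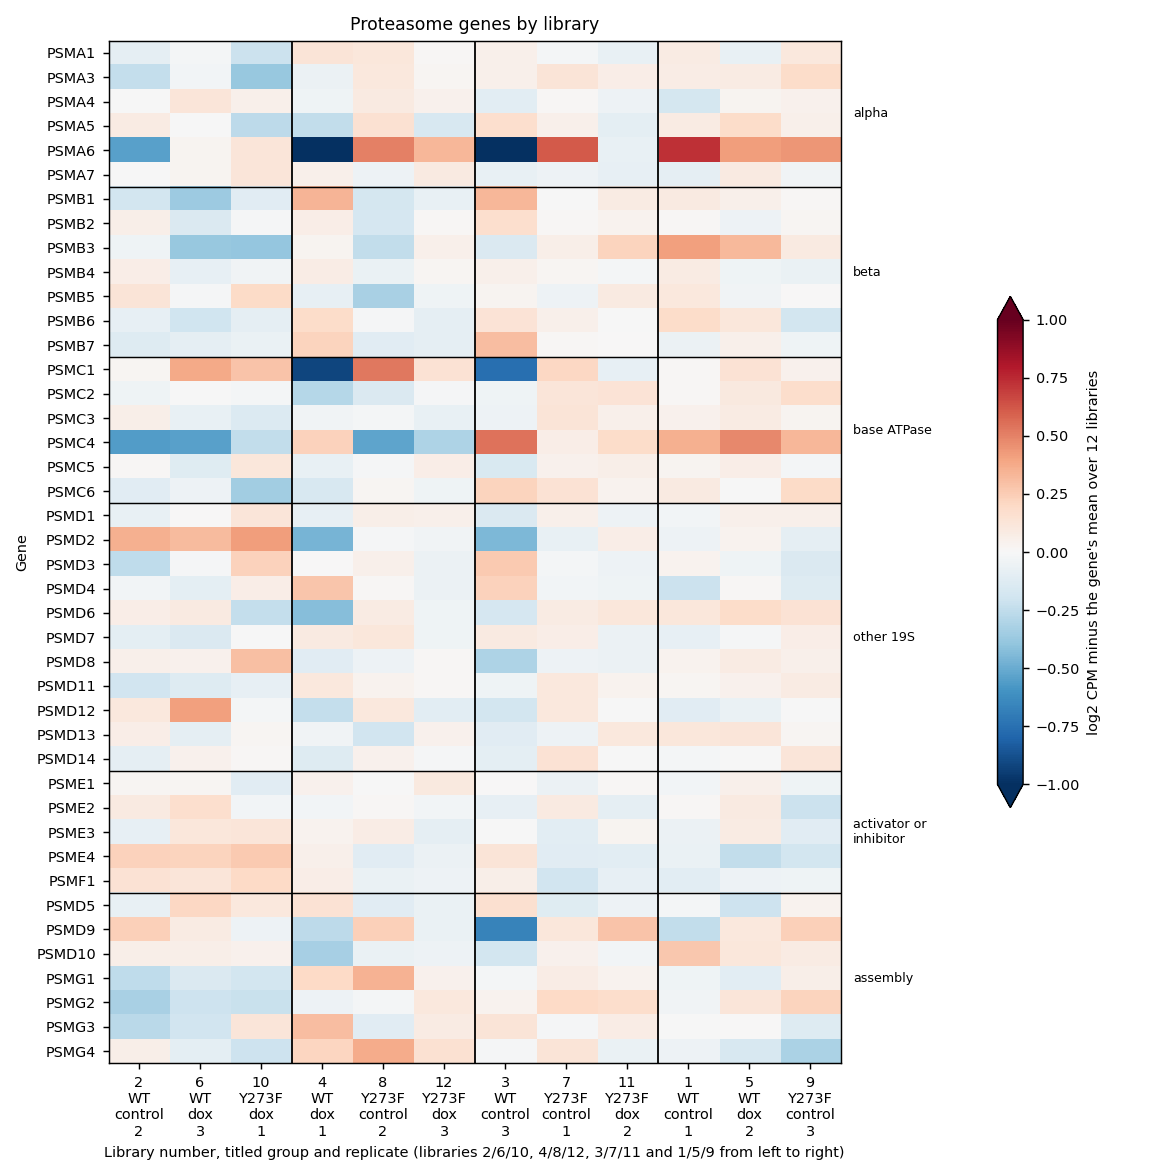
Deviation of log2 CPM in each library from the mean of all 12, for the 42 proteasome genes (down) and the 12 libraries (across, by library set, with the titled group and replicate under each number). Most cells are pale, PSMC4 is low in libraries 2, 6 and 8, PSMD2 is high in libraries 2, 6 and 10, and PSMC1 is low in libraries 3 and 4. Colours stop at 1 in either direction.

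Of the 4 pairs of library sets, libraries 2/6/10 and 1/5/9 differed in the most proteasome genes, with 16 of 42 higher and 26 lower on average in libraries 2/6/10. Of the 42, 3 lay higher in libraries 2/6/10 without overlap (7.14%, against 27.7% of all genes) and 13 lower (31.0%, against 27.6%). The median difference of set means was -0.036 on the log2 CPM scale, against -0.019 over all genes. The differences ran from -0.84 (PSMC4) to 0.40 (PSME4). Their absolute size had a median of 0.11 over the proteasome genes and 0.38 over all genes, or 0.29 over all genes with a mean log2 CPM of at least 5. These sets were given by the description of the genes and not by the titles, so no test was made between them. The 2/6/10 libraries were drawn from 3 titled groups, as were the 1/5/9 libraries.

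The 3 genes that lay higher were PSME4, PSMD2 and PSMF1. PSME4 encodes PA200, an activator that caps the core without ATP. It had 82.3, 81.8 and 84.0 CPM in libraries 2, 6 and 10, 72.8, 64.7 and 67.2 CPM in libraries 4, 8 and 12, 76.9, 65.0 and 65.2 CPM in libraries 3, 7 and 11, and 66.9, 59.1 and 61.6 CPM in libraries 1, 5 and 9. The 3 values of libraries 2/6/10 lay above the other 9, and the difference from libraries 1/5/9 was 0.40 with a pooled SD within sets of 0.094. PSMF1 encodes PI31, named as an inhibitor of the core. It had 187, 183 and 194 CPM in libraries 2, 6 and 10, 177, 162 and 163 CPM in libraries 4, 8 and 12, 176, 148 and 159.7 CPM in libraries 3, 7 and 11, and 157, 163 and 164 CPM in libraries 1, 5 and 9. Libraries 2/6/10 again lay above the other 9, with a difference of 0.22 from libraries 1/5/9. The other activator genes overlapped. PSME1, for the alpha subunit of the interferon-induced PA28 ring, had 199.8, 199.998 and 182 CPM in libraries 2, 6 and 10, 204, 196 and 211 CPM in libraries 4, 8 and 12, 197, 189 and 198 CPM in libraries 3, 7 and 11, and 193, 204 and 192 CPM in libraries 1, 5 and 9. PSME2, for the beta subunit of that ring, had 83.6, 88.0 and 77.2 CPM in libraries 2, 6 and 10, 77.1, 79.3 and 77.3 CPM in libraries 4, 8 and 12, 74.2, 83.7 and 74.0 CPM in libraries 3, 7 and 11, and 79.3, 83.5 and 67.7 CPM in libraries 1, 5 and 9. PSME3 had 141, 161 and 162 CPM in libraries 2, 6 and 10, 153, 157 and 140.2 CPM in libraries 4, 8 and 12, 148, 139 and 151 CPM in libraries 3, 7 and 11, and 143, 158 and 138 CPM in libraries 1, 5 and 9. None of these sets of values stood apart from another for PSME1, PSME2 or PSME3.

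PSMD2 encodes the scaffold of the base to which shuttle factors that carry ubiquitinated proteins dock. It had 196, 192 and 205 CPM in libraries 2, 6 and 10, 111, 152 and 150.1 CPM in libraries 4, 8 and 12, 113, 146 and 161 CPM in libraries 3, 7 and 11, and 148, 157 and 145 CPM in libraries 1, 5 and 9. Libraries 2/6/10 lay above the other 9, libraries 3 and 4 were the lowest, and the difference from libraries 1/5/9 was 0.40 with a pooled SD of 0.19. PSMD12, a lid subunit gene, had 99.3, 123 and 90.8 CPM in libraries 2, 6 and 10, 78.0, 99.2 and 85.8 CPM in libraries 4, 8 and 12, 81.3, 99.5 and 92.1 CPM in libraries 3, 7 and 11, and 85.5, 88.1 and 92.0 CPM in libraries 1, 5 and 9. Library 6 was the highest and the sets overlapped. PSMD1, the other large scaffold of the base, had 384, 406 and 440.4 CPM in libraries 2, 6 and 10, 383, 421 and 419 CPM in libraries 4, 8 and 12, 367, 419 and 391 CPM in libraries 3, 7 and 11, and 397, 420.2 and 419 CPM in libraries 1, 5 and 9, with a difference of -0.0080 between libraries 2/6/10 and 1/5/9. PSMD11, a lid subunit that joins lid and core, lay below the other 9 in libraries 2/6/10, at 404, 421 and 435 CPM against 448 to 495 CPM. PSMD6 was the other gene of this group that lay lower than libraries 1/5/9 without overlap (-0.17), so that of the 11 other genes of the regulatory particle 1 lay higher and 2 lower, against 27.7% of all genes higher and 27.6% lower.

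**Figure D3:**
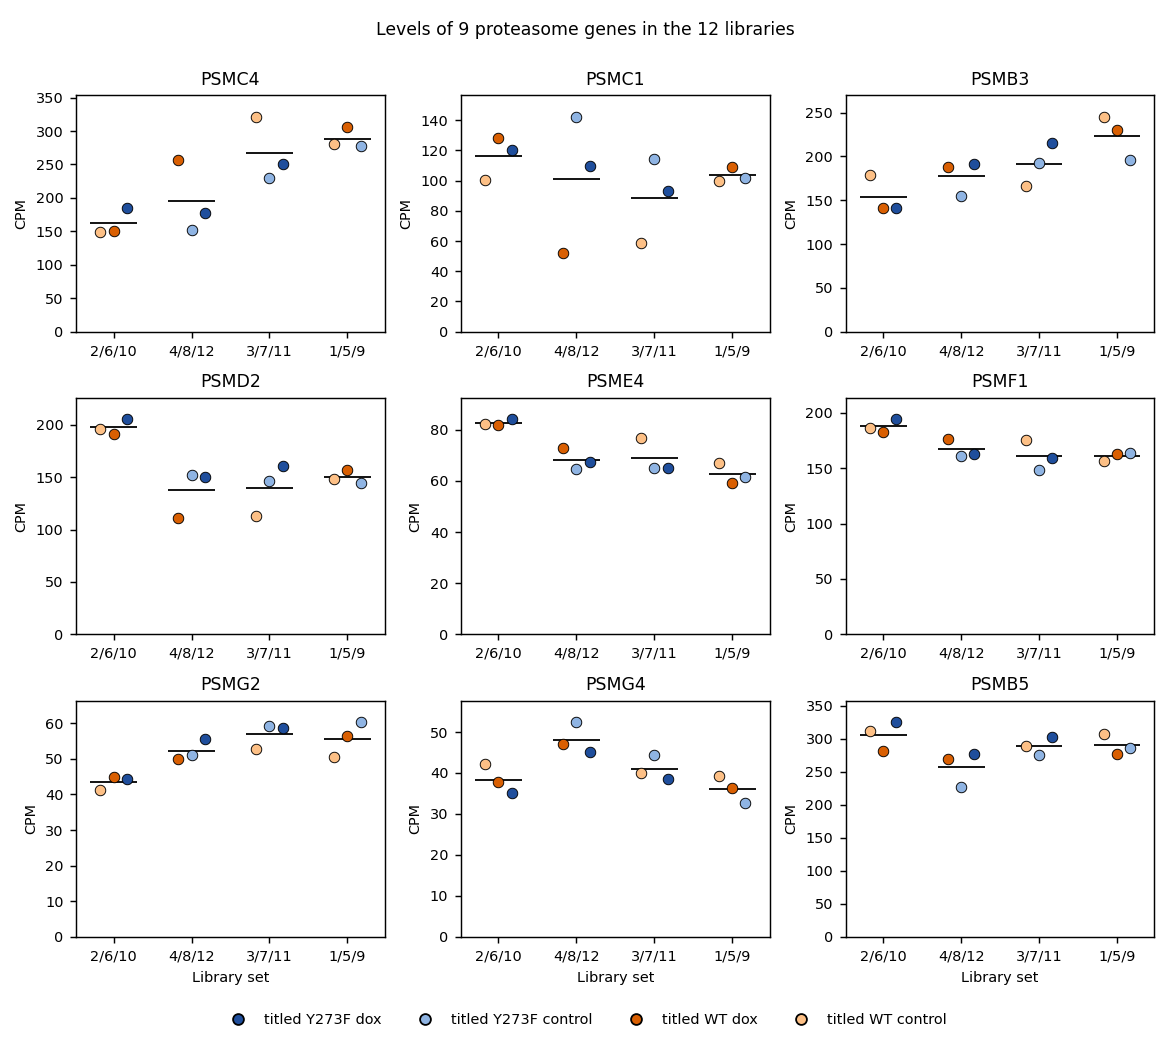
CPM of 9 proteasome genes in the 12 libraries, by library set and coloured by titled group, with a line at the mean of each set. The titled colours mix within each set. Libraries 2/6/10 lie above the other 9 for PSMD2, PSME4 and PSMF1 and below them for PSMG2, and PSMC1 is lowest in libraries 4 and 3.

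Of the 6 ATPase genes, PSMC2, PSMC4 and PSMC6 lay lower in libraries 2/6/10 than in libraries 1/5/9 and 0 lay higher, against 27.6% of all genes lower and 27.7% higher. PSMC4 had 149, 151 and 185 CPM in libraries 2, 6 and 10, 257, 152 and 178 CPM in libraries 4, 8 and 12, 321, 229.9 and 250.5 CPM in libraries 3, 7 and 11, and 281, 307 and 278 CPM in libraries 1, 5 and 9. Its difference of -0.84 (a ratio of 0.559) was the largest of any proteasome gene, against a pooled SD of 0.25. It was not confined to libraries 2/6/10, since libraries 8 and 12 were as low. The 6 ATPases stand once each in the ring, and PSMC4 was also set against the mean log2 CPM of the other 5. On this scale it lay at -0.014, -0.032 and 0.31 in libraries 2, 6 and 10, 1.05, -0.070 and 0.21 in libraries 4, 8 and 12, 1.23, 0.47 and 0.68 in libraries 3, 7 and 11 and 0.85, 0.93 and 0.78 in libraries 1, 5 and 9. Its position relative to the other ATPase genes thus varied by more than 1 log2 unit. PSMC6 had 119, 125 and 102 CPM in libraries 2, 6 and 10, 116, 131 and 126 CPM in libraries 4, 8 and 12, 151, 143 and 133 CPM in libraries 3, 7 and 11, and 138, 129 and 148 CPM in libraries 1, 5 and 9, a difference of -0.27 between libraries 2/6/10 and 1/5/9. PSMC5 had 269, 246 and 289 CPM in libraries 2, 6 and 10, 254, 265 and 280.5 CPM in libraries 4, 8 and 12, 240.4, 275 and 278 CPM in libraries 3, 7 and 11, and 272, 280.1 and 264 CPM in libraries 1, 5 and 9, with overlap between these sets and a difference of -0.024. PSMC1 was picked after the data were seen and had 100.2, 128 and 120.5 CPM in libraries 2, 6 and 10, 52.3, 142 and 109 CPM in libraries 4, 8 and 12, 58.8, 114 and 93.3 CPM in libraries 3, 7 and 11, and 99.9, 109 and 102 CPM in libraries 1, 5 and 9. Its lowest values were in libraries 3 and 4, titled WT control 3 and WT dox 1, the libraries in which PSMD2 was lowest too. Against the mean of the other 5 ATPase genes, PSMC1 ran from -1.70 in library 3 to -0.19 in library 8, a wider range than that of PSMC4. The mean that PSMC4 was set against includes PSMC1, so the relative values of PSMC4 in libraries 3 and 4 include the low PSMC1 there.

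In the core, 5 of 13 genes lay lower in libraries 2/6/10 than in libraries 1/5/9 and 0 higher, against 27.6% of all genes lower and 27.7% higher. Among the beta subunit genes, PSMB3 had 179, 142 and 141 CPM in libraries 2, 6 and 10, 188, 155 and 191 CPM in libraries 4, 8 and 12, 167, 192 and 215 CPM in libraries 3, 7 and 11, and 245, 231 and 195 CPM in libraries 1, 5 and 9. Libraries 6 and 10 were the lowest, and the difference was -0.54 with a pooled SD of 0.18. PSMB1 had 235, 207 and 247 CPM in libraries 2, 6 and 10, 338, 237 and 254 CPM in libraries 4, 8 and 12, 336, 266 and 283 CPM in libraries 3, 7 and 11, and 285, 277 and 268 CPM in libraries 1, 5 and 9, with the highest values in libraries 3 and 4 and a difference of -0.27. PSMB4, the steadiest of the beta subunit genes, had 391, 354 and 366 CPM in libraries 2, 6 and 10, 394, 356 and 379 CPM in libraries 4, 8 and 12, 388, 379.8 and 369 CPM in libraries 3, 7 and 11, and 395, 363 and 356 CPM in libraries 1, 5 and 9. The 3 genes for the cutting subunits differed less than PSMB3. PSMB5 had 312, 282 and 325 CPM in libraries 2, 6 and 10, 269.6, 228 and 277 CPM in libraries 4, 8 and 12, 289.7, 275 and 303 CPM in libraries 3, 7 and 11, and 307, 277 and 286 CPM in libraries 1, 5 and 9. Its libraries 2/6/10 overlapped with libraries 1/5/9 and lay above libraries 4/8/12, by 0.25. PSMB6, for the subunit with the caspase-like site, had 441, 404 and 436 CPM in libraries 2, 6 and 10, 527, 461 and 438 CPM in libraries 4, 8 and 12, 510.4, 483 and 464 CPM in libraries 3, 7 and 11, and 529, 504 and 409 CPM in libraries 1, 5 and 9, and libraries 2/6/10 overlapped with libraries 4/8/12 and 1/5/9. PSMB7, for the subunit with the trypsin-like site, had 357, 366 and 371 CPM in libraries 2, 6 and 10, 456, 361 and 366 CPM in libraries 4, 8 and 12, 484, 392 and 390.4 CPM in libraries 3, 7 and 11, and 373, 404 and 378 CPM in libraries 1, 5 and 9. It lay lower in libraries 2/6/10 than in libraries 1/5/9 by a difference of -0.077 that was smaller than its pooled SD of 0.13. PSMB10, which can replace it, had at most 0.586 CPM in any library and 0 counts in 7 of 12.

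Among the alpha subunit genes, PSMA3 had 203, 234 and 183 CPM in libraries 2, 6 and 10, 229.6, 257 and 242 CPM in libraries 4, 8 and 12, 247, 260.4 and 249 CPM in libraries 3, 7 and 11, and 251, 253 and 271 CPM in libraries 1, 5 and 9. Libraries 2 and 10 were the lowest of the 12, and the difference between libraries 2/6/10 and 1/5/9 was -0.33 with a pooled SD of 0.10. PSMA6 differed by -0.58, within a pooled SD of 0.60, at levels below 3 CPM. PSMA7, whose difference was the smallest of this group, had 919, 938 and 1001 CPM in libraries 2, 6 and 10, 956, 890.0 and 980.2 CPM in libraries 4, 8 and 12, 876, 890.4 and 870.3 CPM in libraries 3, 7 and 11, and 864, 979.9 and 899 CPM in libraries 1, 5 and 9. The difference was 0.060. PSMA1, PSMA4 and PSMA5 overlapped between these sets.

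Of the 7 chaperone genes, PSMG1, PSMG2 and PSMD10 lay lower in libraries 2/6/10 than in libraries 1/5/9 and 0 lay higher, against 27.6% of all genes lower and 27.7% higher. PSMG1 and PSMG2 encode the PAC1 and PAC2 proteins, which form a pair that starts the alpha ring. PSMG2 had 41.4, 44.8 and 44.3 CPM in libraries 2, 6 and 10, 50.01, 51.1 and 55.6 CPM in libraries 4, 8 and 12, 52.9, 59.2 and 58.6 CPM in libraries 3, 7 and 11, and 50.4, 56.3 and 60.3 CPM in libraries 1, 5 and 9. Libraries 2/6/10 lay below the other 9, by -0.35 from libraries 1/5/9 with a pooled SD of 0.094. PSMG1 had 40.7, 44.1 and 42.9 CPM in libraries 2, 6 and 10, 55.8, 62.0 and 50.04 CPM in libraries 4, 8 and 12, 47.9, 51.1 and 49.8 CPM in libraries 3, 7 and 11, and 47.1, 45.1 and 50.5 CPM in libraries 1, 5 and 9. Libraries 2/6/10 lay below the other 9 here too, by -0.16 from libraries 1/5/9 and by -0.39 from libraries 4/8/12. PSMG3 and PSMG4 encode PAC3 and PAC4, the second pair. PSMG3 had 90.6, 95.4 and 119 CPM in libraries 2, 6 and 10, 135, 101 and 116 CPM in libraries 4, 8 and 12, 119, 108 and 115 CPM in libraries 3, 7 and 11, and 109, 109.5 and 100.1 CPM in libraries 1, 5 and 9, with overlap between all sets. PSMG4 had 42.3, 37.8 and 35.0 CPM in libraries 2, 6 and 10, 47.0, 52.4 and 45.0 CPM in libraries 4, 8 and 12, 40.1, 44.3 and 38.7 CPM in libraries 3, 7 and 11, and 39.2, 36.3 and 32.6 CPM in libraries 1, 5 and 9. Its libraries 4/8/12 lay above the other 9, by 0.23 from libraries 3/7/11. The genes of the base chaperones differed among themselves. PSMD10 (gankyrin) lay lower in libraries 2/6/10 than in libraries 1/5/9 (-0.10), and PSMD5 (0.14) and PSMD9 (0.055) overlapped.

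**Figure D4:**
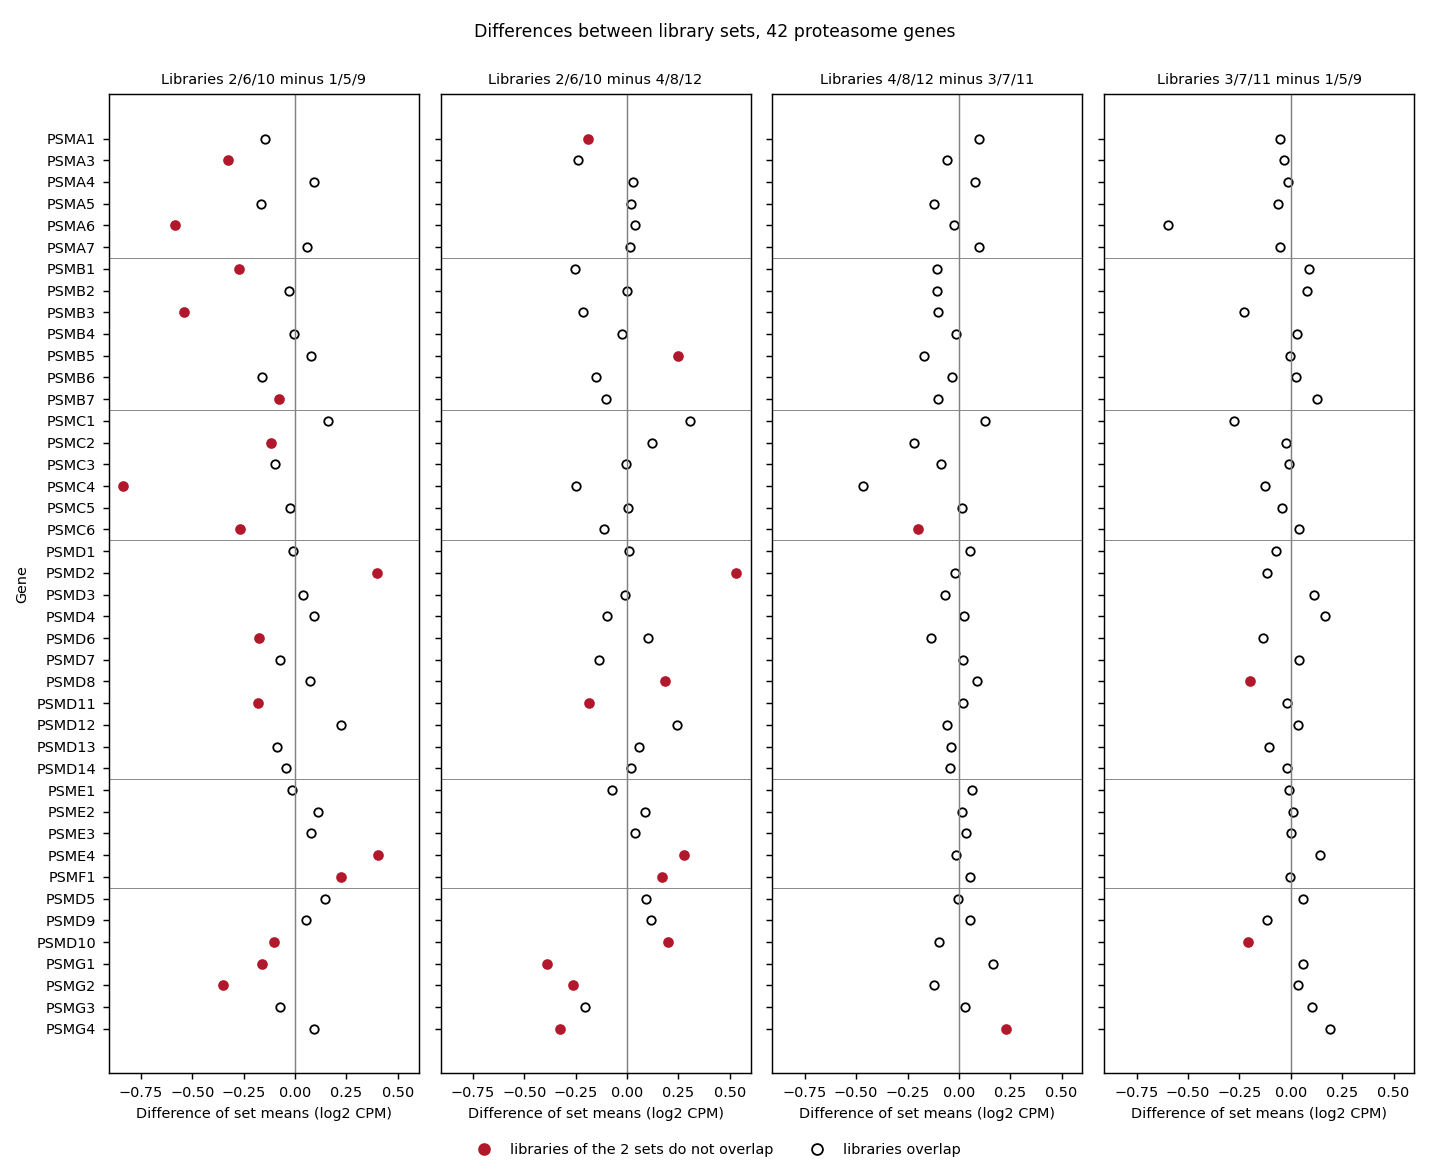
Differences of set means of log2 CPM for the 42 proteasome genes between 4 pairs of library sets, with filled points where the 3 libraries of one set all lie on one side of the 3 of the other. Filled points number 16 for libraries 2/6/10 minus 1/5/9, 11 for 2/6/10 minus 4/8/12, 2 for 4/8/12 minus 3/7/11 and 2 for 3/7/11 minus 1/5/9.

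Against all other 9 libraries, libraries 2/6/10 lay above for PSME4, PSMD2 and PSMF1 (3 of 42, against 18.8% of all genes) and below for PSMD11, PSMG1 and PSMG2 (3 of 42, against 16.3%). Both counts are below the share over all genes. Against libraries 4/8/12 alone, libraries 2/6/10 lay above for 6 of 42 genes (PSMB5, PSMD2, PSMD8, PSMD10, PSME4 and PSMF1, against 25.0% of all genes). They lay below for 5 of 42 (PSMA1, PSMD11, PSMG1, PSMG2 and PSMG4, against 23.1%).

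Libraries 4/8/12, in which DYRK1B was read at its highest level, stood apart from the other 9 libraries in few of these genes, and in few of all genes. Against the other 9 libraries they lay above for PSMG4 alone (1 of 42, against 1.18% of all genes) and below for 0 (against 1.26%). Against libraries 3/7/11 they lay above for PSMG4 (1 of 42, against 8.99% of all genes) and below for PSMC6 (1 of 42, against 8.50%). The median difference of the 42 was -0.017, against 0.00096 over all genes. The largest single difference was -0.47 (PSMC4), with overlapping libraries. The 7 beta subunit genes were each lower in libraries 4/8/12 on average, by -0.17 to -0.012, with overlapping libraries in every case. Libraries 3/7/11 lay above libraries 1/5/9 for 0 of the 42 (against 9.67% of all genes) and below for PSMD8 and PSMD10 (2 of 42, against 9.99%), with a median difference of -0.0078.

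Genes that serve the proteasome but fall outside these symbols were described from a list of 56 genes, of which 55 passed the filter. In the comparisons of titles 0 of 55 passed the test in any of the 4. Between libraries 2/6/10 and 1/5/9, 16 lay higher and 14 lower without overlap, close to the 27.7% of all genes higher and 27.6% lower, with a median difference of 0.0085. The counts of its groups below are small and stand against the same shares over all genes. Of the 10 further subunits and bound factors, 3 lay higher and 4 lower, near those shares, and ZFAND2A, an arsenite-induced partner of the regulatory particle, differed most (0.64). It had 22.7, 21.4 and 18.9 CPM in libraries 2, 6 and 10 and 9.69 to 14.6 CPM in the other 9. POMP, which encodes the chaperone of the beta ring, had 433, 423 and 436 CPM in libraries 2, 6 and 10 and 344 to 405 CPM in the other 9. It thus lay higher where PSMG1 and PSMG2 lay lower, and AKIRIN2, which brings proteasomes into the nucleus, lay higher as well, at 26.3, 23.5 and 27.2 CPM against 13.4 to 18.0 CPM.

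Of the interferon-induced subunit genes, PSMB9 differed more between these sets than any of the 42 proteasome genes. PSMB9, which replaces PSMB6, had 38.4, 31.7 and 35.7 CPM in libraries 2, 6 and 10, 27.4, 23.9 and 28.5 CPM in libraries 4, 8 and 12, 22.9, 17.4 and 25.6 CPM in libraries 3, 7 and 11, and 11.4, 17.4 and 11.0 CPM in libraries 1, 5 and 9. Its difference between libraries 2/6/10 and 1/5/9 was 1.42. PSMB8, which replaces PSMB5, had 57.5, 55.2 and 58.3 CPM in libraries 2, 6 and 10, 54.2, 37.5 and 49.7 CPM in libraries 4, 8 and 12, 42.6, 42.7 and 39.2 CPM in libraries 3, 7 and 11, and 30.6, 39.8 and 30.6 CPM in libraries 1, 5 and 9, a difference of 0.77. For both, libraries 2/6/10 lay above the other 9 and libraries 1/5/9 were on average the lowest. PSME1 and PSME2, whose proteins act with these subunits, did not separate the same libraries.

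NFE2L1 itself had 118, 123 and 129 CPM in libraries 2, 6 and 10, 132, 120.1 and 126 CPM in libraries 4, 8 and 12, 126, 135 and 144 CPM in libraries 3, 7 and 11, and 133, 113 and 129.8 CPM in libraries 1, 5 and 9, with overlap between libraries 2/6/10 and 1/5/9 and a difference of -0.023. Of the 14 tested genes of its pathway, 3 lay higher in libraries 2/6/10 than in libraries 1/5/9 and 2 lower, against 27.7% of all genes higher and 27.6% lower. MAFF, one of the small Maf partners, differed most, at 27.0, 28.1 and 23.2 CPM in libraries 2, 6 and 10 and 6.64 to 11.4 CPM in the other 9. Of the 6 genes for ubiquitin and its activation, 3 lay higher and 0 lower, against the same shares. Of the 7 shuttle factor genes 1 lay higher and 3 lower. Of the 11 genes of the segregase VCP and its cofactors 1 lay higher and 3 lower, and FAF1 differed most, with 44.7, 49.9 and 45.0 CPM in libraries 2, 6 and 10 and 62.2, 66.1 and 59.5 CPM in libraries 1, 5 and 9.

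In the genome, 8 of the 46 genes lie on chromosome 14 and 7 on chromosome 17. Those on chromosome 14 include PSME1 (24136194 to 24138962) and PSME2 (24143365 to 24146610), which are near each other, and PSMA3, PSMA6, PSMB5, PSMB11, PSMC1 and PSMC6. In libraries 2/6/10 against 1/5/9, PSMA3, PSMA6 and PSMC6 lay lower and PSMB5, PSMC1, PSME1 and PSME2 overlapped, and of the 7 on chromosome 17 PSMB3 and PSMD11 lay lower and the other 5 overlapped, against 27.6% of all genes lower.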

How the data were processed

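The authors deposited whole-number counts of 3' tag reads per gene and library, and a merged count table of gene symbols, which was used here. STAR and the build GRCh38.p14 are named in the submitters' processing notes. Not given in the sources used here are the version of STAR, the gene annotation and the treatment of molecular identifiers. Of the 40605 merged rows, 40605 equal a transcript-strand row of the per-library files in all 12 libraries. Reads without a gene, 35.5% to 43.2% of a library, were left out. CPM are counts scaled with TMM factors, and log2 CPM used a prior count of 2.

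Low counts were removed with filterByExpr at a minimum count of 10. The quasi-likelihood test of edgeR 4.0.16 (R 4.3.3) was fitted with a mean for each titled group. Benjamini-Hochberg adjustment ran over 13047 genes, with a threshold of 0.05, two-sided. Library sets were described without a test. Alternatives were other scaling factors and filters, DESeq2 1.42.0, limma 3.58.1 (voom), unstranded counts, a replicate block, and leaving out libraries. The procedure was tested on simulated counts.

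Values in every library are given for the catalytic, activator, inhibitor and PSMG genes. In each other group they are given for the genes with the largest (2) and smallest (1) difference between libraries 2/6/10 and 1/5/9. Of the pathway lists, POMP, NFE2L1, PSMB8, PSMB9 and the gene with the largest difference in each list are named, except in 2 lists where it is not reported here. Other genes were named after their values were seen. The genes and lists were chosen with earlier results of these data known. Replicate numbers do not pair the libraries. Exon overlaps come from GENCODE release 29 on GRCh38, and promoters and positions from RefSeq on GRCh38.p14.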

Additional observations from a re-analysis of the deposited data

How the results depend on the processing

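Of 504 recomputed values, 466 stayed the same and 38 moved. Fold changes of single genes were recomputed only for the 2 proteasome genes with the smallest edgeR p in each comparison of titles. These fold changes were judged by their sign and side of the threshold, and medians by the spread between libraries. Counts stayed the same if equal to the main count or, for counts above 0, within a fixed ratio of it. None of the recomputed log2 fold changes of single genes changed sign under any alternative, whereas medians near 0 did. Choosing these genes by a small p favours a stable sign, and other genes named above were not recomputed. Genes past the threshold numbered 0 in each comparison of titles under every scaling, filter, test and count table tried. Leaving out 1 library at a time gave 0 to 1 for doxycycline in the Y273F line, for the difference and for the lines, and 0 for doxycycline in the WT line. The genes called were SLX1B (without Y273F control 2), RPL32P18 (without Y273F dox 2) and FKBP1C (without Y273F dox 3), named after their values were seen, and no proteasome gene was called. With a replicate block the median log2 fold change of the proteasome genes was 0.0088 for doxycycline in the WT line, and the block changed no call. Same-numbered libraries of different groups correlated above 0.1 in 3 of 18 pairs (-0.69 to 0.57), so the numbers were not taken as pairs.

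The median log2 fold change between the lines was 0.032 with library totals only. Leaving out 1 library gave -0.00099 to 0.048 for it, -0.044 to 0.016 for doxycycline in the Y273F line, -0.0072 to 0.033 for it in the WT line and 0.014 to 0.078 for the difference. The median difference between libraries 2/6/10 and 1/5/9 was -0.065 with upper-quartile factors, -0.095 without a filter and -0.017 with a stricter filter (at least 5 CPM in 3 libraries), and -0.075 to -0.039 with 1 library left out. Between libraries 2/6/10 and 4/8/12 it was -0.028 with upper-quartile factors, 0.025 with library totals, -0.014 without a filter and -0.026 to 0.011 with 1 library left out. Between libraries 3/7/11 and 1/5/9 it was -0.026 with library totals and -0.037 to 0.0060 with 1 library left out. The median kept its sign for the difference of doxycycline effects, for libraries 2/6/10 against 1/5/9 and for libraries 4/8/12 against 3/7/11, and changed sign under at least 1 alternative in the other 5. Genes without overlap between libraries 4/8/12 and 3/7/11 numbered 4 with library totals and 2 to 10 with 1 library left out, and between libraries 3/7/11 and 1/5/9 4 to 8, since 2 libraries overlap less readily than 3. The cause of the other moves was not tested.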
